A study of Mus musculus with 8 samples.

Results

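The immunoglobulin-family adhesion molecules of the nervous system are cell-surface proteins that hold neural cells and axons together and pass signals inward. The 10 genes described here were Chl1, L1cam, Nrcam and Nfasc of the L1 family, Ncam1 and Ncam2 of the NCAM family, Cntn1 and Thy1, whose proteins are held in the membrane by a glycosylphosphatidylinositol (GPI) anchor, and Alcam and Cadm1. They were selected as a family list around Chl1 and Thy1, and those 2 were chosen by their measured difference in normalised reads between the groups. All 10 were found among the 15538 genes of the table by Ensembl identifier. Because Chl1 and Thy1 were chosen for their difference, their values are a description with no test. The other 8 were listed by family, though with earlier results of these data known, and their test is given.

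Polyadenylated RNA of neurospheres, the floating clusters in which primary neural stem cells of the embryonic mouse brain are cultured, was sequenced in bulk. The labels name 4 libraries as wild type (Phf23+/+) and 4 as knockout (Phf23-/-), Phf23 being the gene of a PHD-finger chromatin protein. No label gives strain, embryonic age, the allele or whether the replicates were grown or taken separately, and the tests can therefore speak only of the scatter among these libraries, part or all of which may be technical. The stated aim was to find how Phf23 loss blocks the differentiation of these cells.

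Depth recovered from the values ran from 15647304 to 19462516 reads per library. The targeted gene went against its label: Phf23 had 1481 ± 108 normalised reads in the libraries labelled knockout and 798 ± 85.4 in those labelled wild type (SD, n = 4 each). Every direction below is therefore one between labels. A gene total does not show which parts of Phf23 were read. The libraries also differed in how their reads depended on transcript length. The slope of the log2 level with transcript length, per doubling of length, was 0.26, 0.20, 0.08 and 0.06 in the libraries labelled wild type 1 to 4 and -0.24, -0.31, -0.09 and 0.04 in those labelled knockout 1 to 4, so long transcripts were relatively lower in the latter. The longest annotated transcript was 4767 to 9739 nt for 9 of the 10 genes, longer than that of at least 75.1% of genes in the table, and 1735 nt for Thy1, longer than that of 16.7%. Differences of the 10 genes and of the related genes named below are therefore given a second time after correction. In this correction every library's own trend over transcript length and GC content was removed. The slopes largely followed the labels, so a length bias of the libraries and a difference between labels in long transcripts cannot be told apart. The correction may therefore remove part of a real difference, and neither set of values is taken as the true one. The sums of cell type markers are as deposited. Phf23 stayed higher under the knockout label, by 0.58 on the log2 scale once corrected, against 0.89 as deposited.

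L1-family proteins span the membrane, bind like and unlike partners outside the cell, and through a short conserved motif in the cytoplasmic tail bind ankyrins, which tie them to the spectrin and actin skeleton. NCAM carries polysialic acid, a sugar chain that loosens adhesion in the developing brain. Contactin 1 works in complexes with other surface proteins, THY1 is a small protein abundant on mature neurons and thymocytes, ALCAM binds itself and CD6, and CADM1, also called SynCAM1, bridges cells at synapses and elsewhere.

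The coding sequence of the ankyrin-binding motif is shown for the 4 L1-family genes because it is a feature they share, and because the ankyrin gene Ank3 is among the results below. Each line gives the 60 coding bases that end with the motif, from GENCODE M21 transcripts, 5′ to 3′ on the coding strand, with the 15 bases of the 5 motif codons in capitals.
Chl1: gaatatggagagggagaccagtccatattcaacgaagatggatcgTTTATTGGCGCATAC
L1cam: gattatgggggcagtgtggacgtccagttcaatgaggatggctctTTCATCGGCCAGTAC
Nrcam: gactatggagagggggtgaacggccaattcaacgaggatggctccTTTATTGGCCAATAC
Nfasc: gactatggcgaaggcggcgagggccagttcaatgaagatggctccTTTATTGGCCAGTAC
In mm10 these stretches lie in coding sequence of the last exon of the transcript used: for Chl1 at chr6:103729204-103729263 on the plus strand (exon 27), for L1cam at chrX:73855122-73855181 on the minus strand (exon 29), for Nrcam at chr12:44598441-44598500 on the plus strand (exon 31) and for Nfasc at chr1:132570507-132570566 on the minus strand (exon 32). Over the 60 bases Nrcam and Nfasc were identical at 49, Chl1 and Nrcam at 45, and Chl1 and L1cam at 36. Counting from 1 at the start of the motif, the Chl1 codons differed from those of Nrcam by G10C and C11A, with the base of Chl1 written before the position. The motif of Nrcam differed from that of Nfasc by A12G. The motif was present in 3 of 5 coding transcripts of Chl1, 3 of 4 of L1cam, 2 of 5 of Nrcam and 4 of 5 of Nfasc, and a gene total does not say which of them were read.

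Levels of different genes can be set side by side only per length, and the values in this paragraph are mean normalised reads per kilobase of the longest annotated transcript (± SD, n = 4). In the libraries labelled wild type Thy1 was at 781 ± 106 and Chl1 at 672 ± 110, followed by Ncam1 at 567 ± 43.9 and Cntn1 at 545 ± 65.4. Each of these 4 overlapped its neighbour in the order over the libraries. Cadm1 at 371 ± 18.7, Nrcam at 285 ± 24.7 and Alcam at 159 ± 21.3 were each separate from their neighbours. Ncam2 at 81.6 ± 15.05 and Nfasc at 73.5 ± 5.61 overlapped each other, and L1cam was far below at 2.52 ± 2.27. In the libraries labelled knockout the order was different at the top. Ncam1 was highest at 479 ± 30.9, separate from Cntn1 at 369.5 ± 39.2. Thy1 followed at 321 ± 69.9, then Cadm1 at 282 ± 45.02 and Chl1 at 260.0 ± 39.8, and in this run from Cntn1 to Chl1 every neighbour overlapped. Nrcam at 221 ± 16.6 overlapped Chl1, and Alcam was separate at 138 ± 15.2. Nfasc at 51.9 ± 4.95 and Ncam2 at 38.4 ± 14.1 overlapped each other, and L1cam was again last at 1.34 ± 0.866. The order depended on the length used: per kilobase of all annotated exons merged, Ncam1 passed Chl1 under the wild type label (429.9 against 413.6), Chl1 passed Cadm1 under the knockout label (159.9 against 128.6), and Alcam passed Nrcam under both (134.9 against 134.0 and 116.9 against 103.6). Nfasc also passed Ncam2 under the wild type label (50.6 against 44.0).

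**Figure D1:**
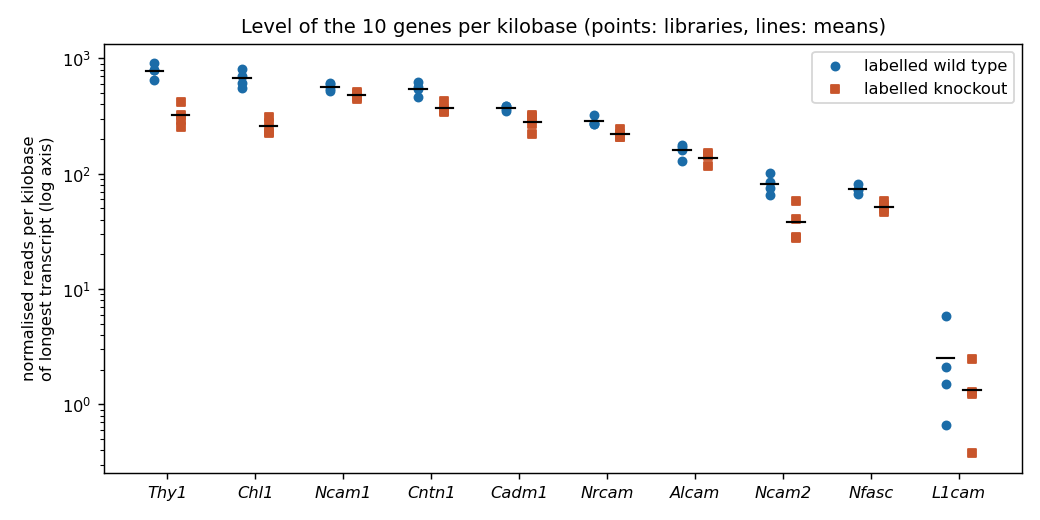
Normalised reads per kilobase of the longest annotated transcript (log axis) for the 10 genes, ordered by their mean in the libraries labelled wild type; points are the 4 libraries of a labelled genotype and lines their means. Thy1 and Chl1 lead in the libraries labelled wild type, Ncam1 leads in those labelled knockout, and L1cam lies far below the others in both.

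Across the 10 genes the mean was lower in the libraries labelled knockout in every case. For 6 of the 8 tested genes all 4 libraries labelled knockout lay below all 4 labelled wild type. This held for 14.2% of all genes (27.7% counting both directions), and for 8 of the 10 with Chl1 and Thy1 counted. Of the 8 tested genes 5 fell and 0 rose, against 14.8% of all genes that were called lower at a false discovery rate (FDR) under 0.05 in the limma-trend test over all genes (29.6% in either direction). The 5 were Nrcam, Nfasc, Ncam2, Cntn1 and Cadm1, and 6 of the 8 had an unadjusted p under 0.05. Without wild type 1, wild type 2 or knockout 1 the count was 3. The median log2 fold change was -0.46 over these 8 and 0.00 over all genes. The list was drawn up around the 2 genes that differed, so the counts that include them say nothing about the family. The other 8 were listed with earlier results of these data known, so their share beside that of all genes is a description. In bulk samples, fewer cells of a type and less RNA per cell cannot be told apart.

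**Figure D2:**
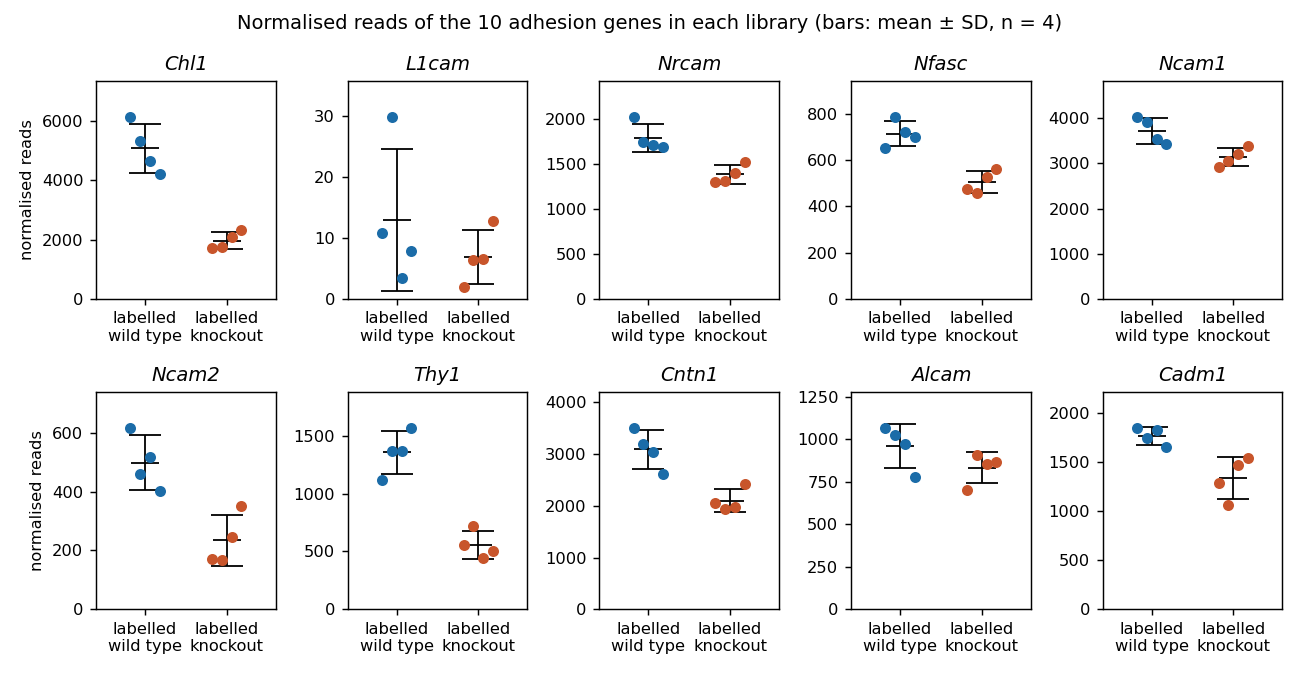
Normalised reads of each of the 10 genes (linear axes from 0) in the 4 libraries labelled wild type and the 4 labelled knockout, drawn in the order 1 to 4 of their labels; bars are mean ± SD. The labelled genotypes are separate in every panel except L1cam and Alcam, with the widest gaps in Chl1 and Thy1.

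Chl1, the close homolog of L1, encodes a transmembrane adhesion protein of growing axons and migrating neurons. The gene (ENSMUSG00000030077) lies at chr6:103510586-103750211 on the plus strand of mm10 and is protein-coding. It had 6131, 5335, 4651 and 4220 normalised reads under wild type labels 1 to 4 and 1706, 1733, 2095 and 2330.5 under knockout labels 1 to 4. The lowest library labelled wild type was thus well above the highest labelled knockout. The mean of 5085 ± 835 was 2.59-fold that of 1966 ± 301 (SD, n = 4 each), and the log2 fold change was -1.37 ± 0.137 (SE). Of all genes, 1.31% had a more negative log2 fold change as deposited, and 4.87% did after correction. Within each labelled genotype, Chl1 was higher in the libraries with the more positive length slopes, with the exception of knockout 1 and 2, which lay close together. Correction for length and GC content brought the log2 fold change to -0.88 ± 0.0641, with the groups still apart. A fit that held each library's length slope as a covariate gave -0.87, and the 4 libraries of shallower slope alone, that is, with wild type 1 and 2 and knockout 1 and 2 left out, gave -1.003. This last fit had only 2 libraries per label. Its FDR values, given for other genes below, rest on a spread shared by genes of like level. They take little from a gene's own scatter.

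Thy1 encodes a GPI-anchored surface glycoprotein with a single immunoglobulin domain. The gene (ENSMUSG00000032011) lies at chr9:44043384-44048579 on the plus strand and is protein-coding. It had 1115, 1368, 1370 and 1566 normalised reads under wild type labels 1 to 4 and 557, 723, 440.1 and 504 under knockout labels 1 to 4. The groups did not overlap. The mean of 1355 ± 185 was 2.44-fold that of 556 ± 121 (SD, n = 4 each), with a log2 fold change of -1.30 ± 0.153 (SE). As the only one of the 10 with a short transcript, Thy1 ran against the length trend, which for a gene of its length and GC content was 0.38 higher in the libraries labelled knockout. Correction therefore widened the difference to -1.67. Of all genes, 1.52% had a more negative log2 fold change as deposited, and 0.785% did after correction. The log2 fold change of Thy1 was -1.77 in the covariate fit and -1.64 in the 4 libraries of shallower slope. In the libraries labelled wild type, Thy1 was lowest in library 1, where Chl1 was highest, and highest in library 4, where Chl1 was lowest.

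**Figure D3:**
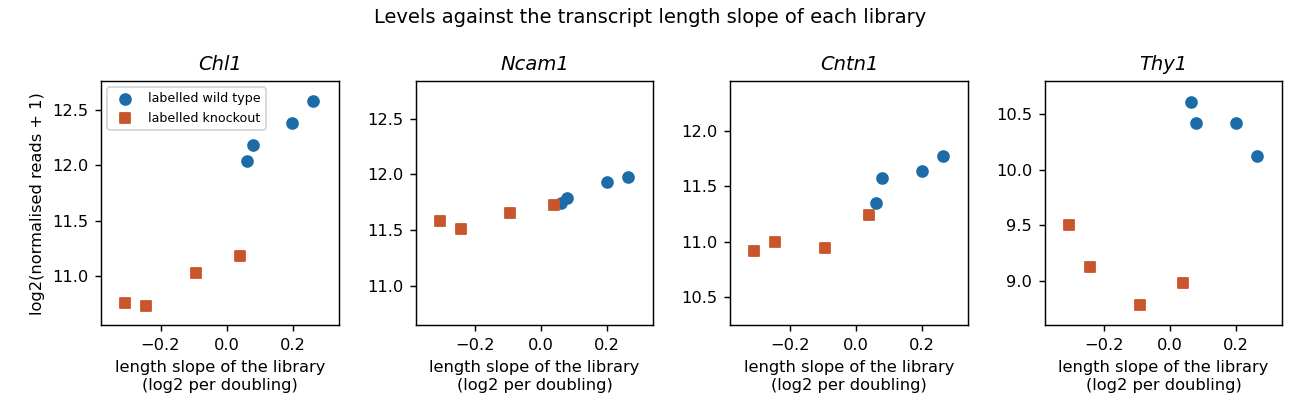
Level of 4 of the genes, as log2(normalised reads + 1), against the transcript length slope of the library (log2 units per doubling of transcript length); circles are libraries labelled wild type and squares those labelled knockout, and every panel spans the same height. Ncam1 shows almost no step and Cntn1 a small one between the labels beside libraries of like slope, while Chl1 and Thy1 show a wide one, seen best between wild type 4 (slope 0.06) and knockout 4 (slope 0.04).

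The log2 differences of the other L1-family genes were smaller than that of Chl1. Nrcam, a partner of neurofascin at the axon initial segment and the nodes of Ranvier (ENSMUSG00000020598, chr12:44328885-44601964), was at 2020, 1741, 1708 and 1691 normalised reads under the wild type label and at 1304, 1309, 1396 and 1527 under the knockout label. The labelled genotypes did not overlap, although wild type 1 stood above the other 3. Nrcam fell by 0.37 ± 0.0997 on the log2 scale (SE, n = 4 each, limma-trend FDR = 0.0175). The call was lost without wild type 1 (FDR = 0.0616), wild type 2 (FDR = 0.0501) or knockout 1 (FDR = 0.0611), and after correction the difference was -0.03 ± 0.0682 (FDR = 0.773).

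Nfasc, neurofascin, anchors the axon initial segment and paranodal junctions through its isoforms, which a gene total does not separate (ENSMUSG00000026442, chr1:132564690-132741797). It had 655, 786, 722 and 700.5 normalised reads under the wild type label and 477, 457, 526 and 564 under the knockout label, again with no overlap. Nfasc fell by 0.50 ± 0.110 on the log2 scale (limma-trend FDR = 0.00897), and its call held in all 8 fits that each dropped 1 library. Corrected, it stood at -0.11 ± 0.105 (FDR = 0.513) and the groups overlapped. In the 4 libraries of shallower slope Nfasc was at -0.39 (FDR = 0.0386), and in the covariate fit at -0.33 and not called (FDR = 0.44).

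L1cam, which guides axon growth and bundling, was nearly silent (ENSMUSG00000031391, chrX:73853778-73896105). It had 11, 31, 3 and 8 recovered reads under the wild type label and 2, 6, 7 and 13 under the knockout label. The groups overlapped, and the log2 fold change of -0.66 (95% interval -1.98 to 0.65, FDR = 0.434) allows a change in either direction. At 2 to 31 reads a difference of this size was not detectable. Its annotated exons share 100 bases with Arhgap4 on the same strand.

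In the NCAM family Ncam2 fell and Ncam1 did not pass the test. Ncam2, whose protein takes part in the sorting of olfactory axons (ENSMUSG00000022762, chr16:81200697-81626828), had 615, 459, 519 and 400.1 normalised reads under the wild type label and 172, 167, 247 and 351 under the knockout label. The highest library labelled knockout, number 4, came close to the lowest labelled wild type, also number 4, but did not reach it. Ncam2 fell by 1.13 ± 0.219 on the log2 scale (limma-trend FDR = 0.00598) and stayed called whichever library was dropped. Corrected, Ncam2 was at -0.72 ± 0.169 (FDR = 0.0126), with no overlap. The 4 libraries of shallower slope, at 519 and 400.1 against 247 and 351, gave -0.63 (FDR = 0.000980). That FDR hardly reflects the scatter of these few values. The covariate fit gave -0.28 and no call (FDR = 0.673).

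Ncam1 (ENSMUSG00000039542, chr9:49502136-49798925) had 4023, 3913, 3535 and 3427 normalised reads under the wild type label and 2913, 3060.0, 3216 and 3384 under the knockout label. The groups did not overlap, but wild type 4 and knockout 4 differed by little. The difference was -0.24 ± 0.0954 on the log2 scale (FDR = 0.0705). It passed the threshold without knockout 4 (log2 -0.28, FDR = 0.0400), with scaling by library size only (log2 -0.31, FDR = 0.0376) and in DESeq2 (log2 -0.25, adjusted p = 0.0389). Correction turned its sign, to 0.07 ± 0.0727 (FDR = 0.511). Annotated exons of Ncam1 share 417 bases with the antisense gene Gm11149, and without knowledge of whether the counting used strand their reads cannot be told apart.

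Cntn1, contactin 1, is a partner of neurofascin and of the receptor phosphatase PTPRZ1 (ENSMUSG00000055022, chr15:92051165-92341967). It had 3505, 3194, 3049 and 2612 normalised reads under the wild type label and 2049, 1938, 1974 and 2421 under the knockout label, with no overlap. Cntn1 fell by 0.56 ± 0.113 on the log2 scale (limma-trend FDR = 0.00684), a call that held whichever library was dropped. After correction it was at -0.23 ± 0.0674 (FDR = 0.0274), still with no overlap. It was at -0.37 in the 4 libraries of shallower slope (FDR = 0.0118) and at -0.25 in the covariate fit (FDR = 0.497).

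Cadm1 (ENSMUSG00000032076, chr9:47530173-47857637) had 1850.1, 1743, 1826 and 1654 normalised reads under the wild type label and 1292, 1062, 1478 and 1539.9 under the knockout label. The libraries labelled wild type were close together and all lay above the others. Cadm1 fell by 0.41 ± 0.11997 on the log2 scale (limma-trend FDR = 0.0240). The call was lost without wild type 1 (FDR = 0.0681), wild type 2 (FDR = 0.0620), wild type 3 (FDR = 0.0559) or knockout 1 (FDR = 0.0704), and after correction (log2 -0.16 ± 0.0872, FDR = 0.209). Alcam (ENSMUSG00000022636, chr16:52248996-52454074) had 1066, 1027, 973 and 777 normalised reads under the wild type label and 699, 907, 856 and 868 under the knockout label. These groups overlapped. The difference was -0.20 ± 0.126 (FDR = 0.241, 95% interval -0.48 to 0.07), and 0.14 ± 0.0952 once corrected (FDR = 0.313).

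Correction for length and GC content changed the genes unequally. The part of the difference that the trend gave was between -0.49 and -0.12 on the log2 scale for the 9 genes with long transcripts. Of the 8 tested genes 2, Ncam2 and Cntn1, kept 4 libraries below 4 afterwards, where 10.7% of all genes did. Both were called lower, where 7.79% of all genes were. Chl1 and Thy1, chosen for their difference, also kept 4 libraries below 4. Nrcam, Nfasc, Cadm1, Ncam1 and Alcam were left between -0.16 and 0.14.

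**Figure D4:**
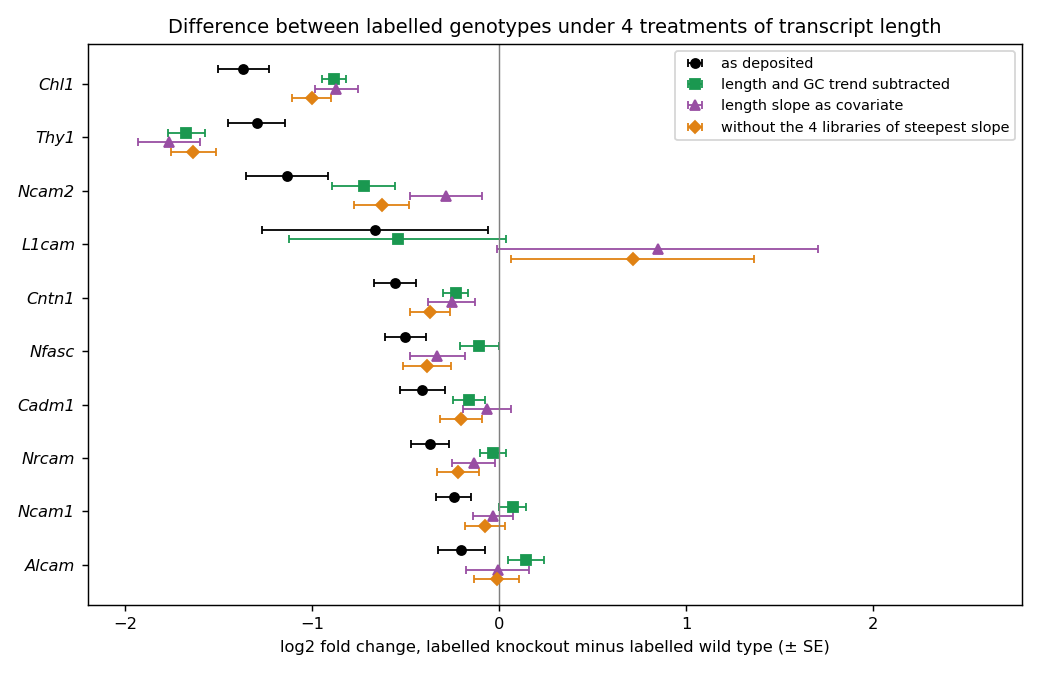
Log2 fold change (libraries labelled knockout minus libraries labelled wild type, ± SE) of the 10 genes as deposited, corrected for length and GC content (trend subtracted), with each library's length slope as a covariate, and in the 4 libraries of shallower slope only. Chl1 and Thy1 stay far below 0 under all 4 treatments, Ncam1 and Alcam lie near 0 once length is treated, and L1cam, with few reads, changes sign.

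The genes whose pattern was most like that of Chl1, by Pearson correlation of log2(normalised reads + 1) over the 8 libraries among 11217 genes with a mean of at least 50, were Cald1 (r = 0.997), Diaph3 (r = 0.997) and Cp (r = 0.996). They encode the actin-binding protein caldesmon, a formin that nucleates actin, and the copper protein ceruloplasmin. For Thy1 they included Olfml2a (r = 0.979) and Rps6ka1 (r = 0.973), which encodes a ribosomal S6 kinase. These values describe likeness only, since the 8 libraries fall into 2 labelled genotypes and a gap between them alone gives a high r. As deposited, Cald1 had 4315 ± 350 normalised reads under the wild type label and 2175 ± 201 in the others (SD, n = 4 each), a log2 difference of -0.99 that was -0.75 once corrected. Rps6ka1 had 1555 ± 149 and 1057 ± 98.7, a log2 difference of -0.56 that was -0.74 once corrected. No test is given, because likeness to a gene chosen for its difference fixes theirs.

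The genes around these molecules were read as 5 lists, with 141 measured genes in all. Of these 14 were called higher and 29 lower (limma-trend FDR under 0.05), 9.93% and 20.6% of them, where the background was 14.8% of all genes each way, and the median log2 fold change was -0.12. After correction 20 were higher and 20 lower, 14.2% each way, where 10.4% of all genes were higher and 7.79% lower. With scaling by library size only 12 were higher and 44 lower, 8.51% and 31.2%, where 11.8% of all genes were higher and 17.7% lower. The 43 calls became 26 when wild type 1 was left out, 24 when wild type 2 was and 21 when knockout 1 was. In the covariate fit 2 were left, Ank3 and Ezr.

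Of 26 measured partners inside the cell 4 rose and 4 fell, 15.4% each way and close to the 14.8% of all genes. Their median log2 fold change was -0.14, and 0.03 after correction. Corrected counts were 5 higher and 2 lower (19.2% and 7.69%, against 10.4% and 7.79% of all genes). Library size alone gave 3 and 7 (11.5% and 26.9%, against 11.8% and 17.7% of all genes). Ank3, which encodes ankyrin-G, the ankyrin that gathers neurofascin and NRCAM at the axon initial segment, had 2794, 2748, 2297 and 2546 normalised reads under the wild type label and 707, 776, 1084 and 1453 under the knockout label. It fell by 1.42 ± 0.188 on the log2 scale (limma-trend FDR = 0.000968). Its corrected value was -0.93 and its value in the covariate fit -0.69 (FDR = 0.0341), called in both. Ezr, the gene of the membrane-actin linker ezrin, rose from 473 ± 34.3 to 753 ± 65.7 (FDR = 0.00306) and was at 0.58 on the log2 scale once corrected, against 0.67 as deposited. Magi1, a scaffold gene, fell from 2794.5 ± 78.7 to 1895 ± 306 (FDR = 0.00642) and Gap43, a growth cone protein gene, rose from 6493 ± 285 to 9281 ± 1329 (FDR = 0.00957). After correction Magi1 lost its call (log2 -0.16 against -0.57, FDR = 0.0853) and Gap43 kept it with a smaller change (log2 0.20 against 0.50).

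Among enzymes that modify or cut these proteins, 3 rose and 8 fell of 19 measured (20 listed), 15.8% and 42.1% against 14.8% of all genes each way, with a median log2 fold change of -0.28. Corrected counts were 4 and 5 (21.1% and 26.3%, against 10.4% of all genes higher and 7.79% lower). Library size alone gave 3 and 9 (15.8% and 47.4%, against 11.8% and 17.7% of all genes). St8sia4, which encodes an enzyme that builds polysialic acid on NCAM, fell from 91.6 ± 8.91 to 44.9 ± 6.12 normalised reads (FDR = 0.00441). The other NCAM polysialyltransferase gene, St8sia2, named after its values were seen, had 65.8, 35.5, 30.4 and 42.6 normalised reads under the wild type label and 13.5, 19.0, 19.5 and 22.5 under the knockout label. St8sia2 fell by 1.15 ± 0.286 on the log2 scale (FDR = 0.0137). Because of how it was named, the FDR values of St8sia2 here and below are a description only. Corrected, St8sia4 lost its call (log2 -0.43 against -1.02, FDR = 0.0970), while St8sia2 kept it (log2 -0.93, FDR = 0.0278). In the 4 libraries of shallower slope it was the other way round, with St8sia4 called (log2 -0.84, FDR = 0.0308) and St8sia2 not (log2 -0.75, FDR = 0.229). St8sia1, the GD3 ganglioside synthase gene, fell from 1430.1 ± 291 to 740 ± 175 and the metalloprotease gene Adam9 fell from 4418 ± 284 to 3231 ± 379 (FDR = 0.00492 and 0.0102), both smaller after correction (log2 -0.45 against -0.96 and -0.32 against -0.46). Bace2, a beta-secretase gene, rose from 315 ± 20.6 to 606 ± 101 (FDR = 0.00145), and was at 1.37 on the log2 scale once corrected, against 0.93.

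Ligands and co-receptors outside the cell had 3 that rose and 9 that fell of 35 measured, 8.57% and 25.7% against 14.8% of all genes each way, with a median log2 fold change of -0.24. Corrected counts were 4 and 5 (11.4% and 14.3%, against 10.4% of all genes higher and 7.79% lower). Library size alone gave 2 and 13 (5.71% and 37.1%, against 11.8% and 17.7% of all genes). Cntnap1, which encodes the contactin partner CASPR, fell from 123 ± 18.6 to 56.9 ± 5.02 normalised reads (limma-trend FDR = 0.00270) and stood at -0.99 on the log2 scale once corrected, against -1.09. Tnr, the gene of the contactin ligand tenascin R, fell from 1231 ± 258 to 595 ± 158 (FDR = 0.00435) and was at -0.52 once corrected, against -1.06. Nrp1, a semaphorin receptor that works with L1-family proteins, fell from 468 ± 59.3 to 267 ± 80.4 (FDR = 0.00930), and Sdc4, a syndecan gene, rose from 1138 ± 47.8 to 1690 ± 228 (FDR = 0.00600). On the log2 scale Sdc4 was at 0.44 once corrected, against 0.56. Nrp1, at -0.84 as deposited, was at -0.70 once corrected (FDR = 0.0212), at -0.52 in the 4 libraries of shallower slope (FDR = 0.00947) and at -0.20 and not called in the covariate fit (FDR = 0.796).

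Other adhesion genes of the immunoglobulin family had 3 that rose and 5 that fell of 46 measured, 6.52% and 10.9%, both under the 14.8% of all genes, with a median log2 fold change of -0.07. Corrected counts were 6 and 6, 13% each way, where 10.4% of all genes were higher and 7.79% lower. Library size alone gave 3 and 10 (6.52% and 21.7%, against 11.8% and 17.7% of all genes). Cadm4, a relative of Cadm1, moved the other way and rose from 2067 ± 368 to 3346 ± 311 normalised reads (FDR = 0.00487), and Bsg, basigin, rose from 4836 ± 727 to 7382 ± 1159 (FDR = 0.00957). Dscam fell from 1386 ± 131 to 824 ± 219 and Negr1, a GPI-anchored member of the IgLON group, fell from 545 ± 80.3 to 361 ± 30.9 (FDR = 0.00781 and 0.00957). After correction Cadm4 was at 0.31 against 0.71, Dscam at -0.39 against -0.78 and Negr1 at -0.30 against -0.58, all still called, while Bsg was not (log2 0.14 against 0.61, FDR = 0.113).

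Of the classical cadherins and catenins 1 rose and 3 fell of 15 measured (21 listed), 6.67% and 20% against 14.8% of all genes each way, with a median log2 fold change of -0.12. Corrected counts were 1 and 2 (6.67% and 13.3%, against 10.4% of all genes higher and 7.79% lower). Library size alone gave 1 and 5 (6.67% and 33.3%, against 11.8% and 17.7% of all genes). Cdh22 rose from 1493 ± 348 to 2820.4 ± 159 normalised reads (FDR = 0.00232) and was at 0.71 on the log2 scale once corrected, against 0.94. Cdh11 fell from 395 ± 15.3 to 297 ± 31.6, Cdh2, the N-cadherin gene, fell from 4346 ± 156 to 3239 ± 641 and Ctnnd1, the p120 catenin gene, fell from 4126 ± 512 to 3094 ± 478 (FDR = 0.0193, 0.0238 and 0.0279). All 3 of these lost their calls without wild type 1 (FDR = 0.0609, 0.0638 and 0.0895), wild type 2 (FDR = 0.0540, 0.0701 and 0.0822) or knockout 1 (FDR = 0.0593, 0.0761 and 0.0960). Cdh11 also lost it without knockout 3 (FDR = 0.0504) and Ctnnd1 without knockout 2 (FDR = 0.0619). Of the 3 only Cdh2 was called after correction (log2 -0.27 against -0.44), with Cdh11 at -0.11 against -0.41 and Ctnnd1 at -0.10 against -0.42.

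**Figure D5:**
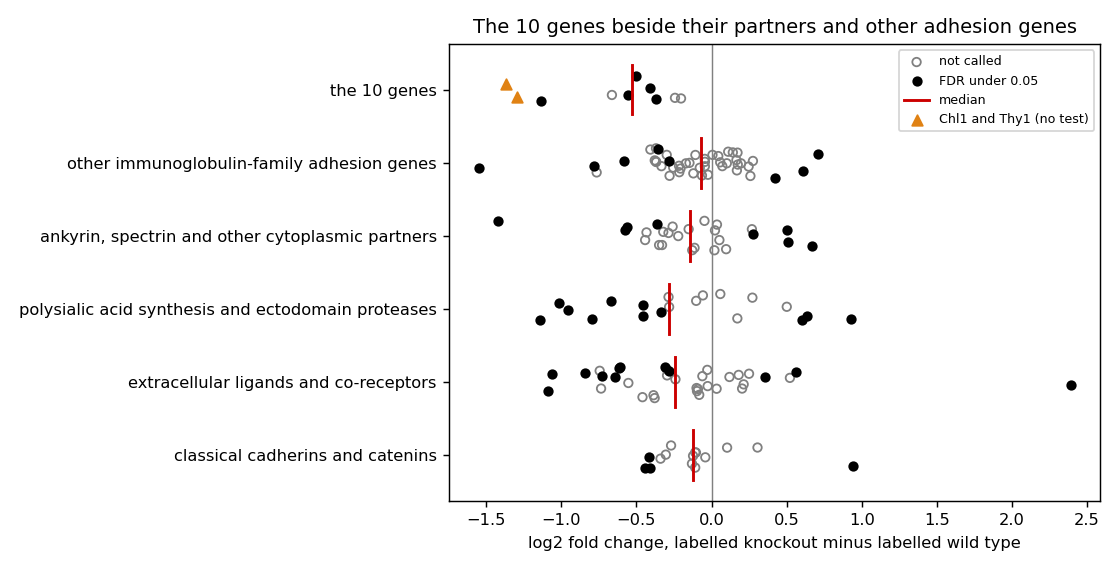
Log2 fold change (libraries labelled knockout minus libraries labelled wild type) of every measured gene of the 10 and of the 5 lists of partners and other adhesion genes; filled points were called at an FDR under 0.05, open points were not, triangles are Chl1 and Thy1, for which no test is given, and red lines are medians. Values are as deposited: all 10 genes lie below 0, each other list holds genes on both sides, and Ank3 at -1.42 is the lowest of the cytoplasmic partners. After correction, which is not drawn, Ncam1 was at 0.07 and Alcam at 0.14.

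Markers of cell types that express these molecules were read in the same libraries. The 13 neuron markers summed to 24728 to 29844 normalised reads under the wild type label and 21204 to 23150 under the knockout label, with 2 higher and 2 lower (15.4% each way, against 14.8% of all genes), and their means ran from 1.79 for Stmn2 to 13771 for Map2. The 12 neural stem cell markers, which define the labelled cell type, were all present, with Vim at 77391 and Prom1 at 261, and summed to 144473 to 153009 and 165641 to 204656 with 4 higher and 0 lower (33.3% and 0%). The 8 astrocyte markers summed to 13920 to 14355 and 11442 to 12816 with 3 higher and 4 lower (37.5% and 50%), and the 12 oligodendrocyte lineage markers to 51915 to 74043 and 64536 to 78560 with 6 higher and 1 lower (50% and 8.33%). In this last list means ran from 2.43 for Mog to 45096 for Olig1. All these counts are as deposited, where 14.8% of all genes were called each way. Dcx and Gap43 are in the neuron list and among the cytoplasmic partners, and Mag is in the oligodendrocyte list and among the ligands. The part of these markers in the differences of the adhesion genes was not tested. Of 8 T cell and thymocyte markers, the other cells known for Thy1, the table used here held 1, Lck at 19.1 normalised reads, and it held 5 of 10 fibroblast and mural cell markers, which summed to at most 106 reads in any library. It held 1 of 10 microglia and macrophage markers (P2ry12, 21.7 normalised reads) and 6 of 8 endothelial markers, at most 158 reads in sum.

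RefSeq promoters (GRCm38.p6) were given for 7 of the 10 genes, Chl1, L1cam, Nrcam, Nfasc, Ncam2, Cntn1 and Alcam. The E-box letters CANNTG, which read the same on both strands and are bound by E proteins such as the TCF4 named in the study's title, were searched in the 250 bases before each start. They were in 5 of the 11 promoters of these genes, and in 66.2% of the 32851 promoters of the same length in the table. The promoter of Chl1, that of Ncam2 and the 3 of Cntn1 held none in this window. The RefSeq window of Chl1, chr6:103510626-103510875, begins after the GENCODE start of the gene and so lies inside the gene given above.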

How the data were processed

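The submitters' processing notes list FastQC (0.12.1), fastp (0.23.4), STAR (2.7.1a), DESeq2 (1.38.3) and mm10, with no settings. The read counter, the annotation and any use of strand were not given in the sources used here. Per gene and library, the authors deposited 1 signal value, and these proved to be read counts scaled by a single factor per library, since 100% of them came back as whole reads (tolerance 1e-04). From 15602 rows 64 repeats were dropped, and 0 columns belonged to other samples. GENCODE M21 held 15535 of the 15538 identifiers.

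Each gene was fitted by limma-trend (limma 3.58.1, R 4.3.3, robust empirical Bayes) to log2(value + 1) by genotype alone, two-sided, with Benjamini-Hochberg adjustment over the whole table. FDR values come from it unless DESeq2 is named, and fold changes are on that scale. The limma-trend code was tested on simulated counts that held no trend over length or GC content, so that check does not cover the correction. With edgeR 4.0.16 (TMM) on the recovered reads 4683 genes were called, against 4593. The correction was a loess surface (span 0.3) of each library's deviations over log2 length of the longest transcript and GC content, fitted to 13265 genes with a mean of at least 10.

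The members and lists were chosen with earlier results of these data known. Named were the 10 genes, Phf23, up to 4 genes of lowest FDR in each related list, the 3 genes most like each of Chl1 and Thy1 in pattern (1 of them is not reported here), and the markers of highest and lowest mean. DESeq2 1.42.0, limma-voom, other scalings, filters, pseudocounts and fits without single libraries were alternatives.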

Additional observations from a re-analysis of the deposited data

Results flagged for a closer look

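In 1 of 76 groups of 4 libraries examined, a single library stood apart from the other 3: Nrcam in wild type 1, with 2020 normalised reads against 1691 to 1741 in wild type 2 to 4. The gap was 0.846 of the whole range, above the critical value of 0.829. Chance alone gives this in about 1 in 20 groups.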

How the results depend on the processing

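Of the 8 tested genes 5 were called, and 4593 genes in the whole table and 43 of the 141 related genes. Leaving out 1 library at a time gave 3 to 6 of the 8, 1884 to 5861 in all and 21 to 61 related, with 1884, 2189 and 2106 in all without knockout 1, wild type 1 and wild type 2. With the trend subtracted the counts were 2 and 2832, and 40 related. With the slope covariate limma-trend called 0 of the 8 (1 at an unadjusted p under 0.05; without the covariate edgeR and limma-voom called 5 of the 7 they tested and DESeq2 6 of 8), 170 in all and 2 related. Without the 4 libraries of the steepest slopes they were 3, 1422 and 23, from 2 libraries per label and an FDR that takes little from a gene's own scatter. With a log2 fold change of at least 1 they were 1, 556 and 7. The cause of these shifts was not tested. With the replicate block 0 of the 8 were called (5 at an unadjusted p under 0.05), 333 in all and 5 related, and with the block and the subtraction together 1, 1433 and 26. Deviations of same-numbered libraries correlated at -0.33 to -0.13, and no sample correlated best with its own number. The signs of these correlations followed the order of the length slopes within each labelled genotype. They therefore cannot decide whether the replicate numbers pair the libraries. The sign turned for L1cam with the covariate (log2 0.85, FDR = 0.805) and without the 4 libraries (0.71, FDR = 0.572), for Ncam1 (0.073) and Alcam (0.14) with the trend subtracted, with or without the block, and for Ctnnd1 with the covariate (0.018, FDR = 0.977). Library size alone as the scaling gave 1827 higher and 2757 lower, against 2301 and 2292, and 12 and 44 against 14 and 29 of the related genes, with a median shift of -0.06. L1cam was not tested in edgeR, limma-voom or with a minimum mean of 10. A pseudocount of 0.1, a minimum mean of 1 or 10 and the other tools kept these 3 counts within 1.5 times. By list DESeq2 called 7 cadherins and catenins against 4, 8 other immunoglobulin genes lower against 5 and 5 enzymes higher against 3, and edgeR also called 5 enzymes higher. Few reads limit L1cam alone among the 10.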
